A study of Mus musculus with 18 samples.

Results

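The 9 genes described here belong to the phosphoinositide 3-kinase (PI3K) pathway and its downstream FoxO transcription factors: Foxo1, Foxo3, Foxo4, Pik3ip1, Inpp5d, Pik3cd, Pik3r1, Akt1 and Sgk1. They were taken as a list of names, with no threshold on their values, out of 55487 genes in the count tables, and all 9 were among the 15318 genes with enough counts to test. Their RNA was measured by RNA sequencing in 18 libraries of WEHI-231, a murine B cell lymphoma line of immature phenotype. Parental cells were compared with the clones #A-59 and #B-20, in which CRISPR/Cas9 had been directed at Tfeb, the gene of a transcription factor of lysosome and autophagy genes. Each genotype was left untreated (0 h) or received F(ab')2 fragments of an antibody to mouse IgM, at 10 µg/ml, to ligate the BCR during 6 or 18 h, and each of the 9 groups had 2 libraries, from independent experiments. Each mutant line grew from 1 clone, and no clone with intact Tfeb was analysed here, so that loss of TFEB and differences between clones cannot be told apart.

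In B cells, the ligated B cell receptor recruits PI3K, a heterodimer of a regulatory subunit such as p85 alpha (Pik3r1) and a catalytic subunit such as p110 delta (Pik3cd), and the kinase makes the membrane lipid that AKT docks to. The phosphatase SHIP-1 (Inpp5d) removes that lipid, and Pik3ip1 is a membrane protein that holds PI3K back. AKT (Akt1) and the related kinase SGK1 phosphorylate FoxO factors, which then leave the nucleus and no longer switch on their targets, among them genes of lymphocyte homing, of cell cycle arrest, and Pik3ip1 itself. RNA levels measure neither the phosphorylation nor the location of these proteins.

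Library totals ranged from 11223588 to 29655262 counts, and the replicates of a group correlated across genes with r from 0.988 to 0.995. One library stood apart: in replicate 2 of #B-20 at 6 h a single gene without a symbol took 2.90% of the counts, against 0.553% to 0.819% for the top gene of the other libraries. All 9 B cell markers were present, with summed levels of 6310 to 13000 counts per Mio (CPM, scaled by TMM), whereas the 8 T cell markers summed to at most 1.04 CPM. The myeloid gene Itgam and the endothelial gene Pecam1 were detected and reached their highest levels in #A-59. There the myeloid list summed to 7.89 to 27.9 CPM, against 1.92 to 9.01 CPM in parental cells and 2.81 to 7.05 CPM in #B-20. The erythroid and stromal list, almost all of it Pecam1, summed to 53.9 to 161 CPM in #A-59, 20.4 to 59.8 CPM in parental cells and 36.1 to 107 CPM in #B-20. Against parental cells, #B-20 too was higher (edgeR, adjusted p under 0.01) in 1 of 2 tested genes of that list at each time. Of the myeloid list, 1 of 3 tested genes was higher in #B-20 at 0 and 6 h. Of all genes, 10.7%, 14.2% and 14.2% passed in #B-20 at 0, 6 and 18 h. The macrophage gene Csf1r reached 57 counts (2.16 CPM) in a library of #A-59, against at most 8 counts in parental cells and 10 in #B-20. The macrophage gene Lyz2 had at most 1 count in a library and the T cell gene Cd3e at most 3. The part of Itgam, Csf1r and Pecam1 in the results below was not tested.

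Tfeb, the targeted gene (chromosome 17, 47737037 to 47792416, GRCm38.p6), was at 79.2 and 82.8 CPM in untreated parental cells, 25.9 and 25.5 CPM in untreated #A-59, and 34.2 and 39.1 CPM in untreated #B-20. Relative to parental cells, the log2 fold changes for the 3 times in order were −1.65, −1.48 and −1.40 in clone #A-59 and −1.14, −0.81 and −1.05 in clone #B-20. The RNA was thus reduced, not absent, in both clones, which the labels call TFEB KO. RNA counts do not show whether TFEB protein was left.

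Promoter sequences were looked up to see which of the 9 genes carry the letters that TFEB or FoxO factors are known to bind. The windows (RefSeq, GRCm38.p6) run from 250 bases before to 50 bases after an annotated start, and 17 of them belong to 8 of the genes. Foxo4 had no entry. Both strands were searched for CACGTG, the E-box core, and for GTAAACA, a FoxO core. CACGTG was in 1 of the 17 windows, 1 of 6 of Sgk1, and GTAAACA was in 1 window, of Akt1, against 7.15% and 3.65% of all 32851 promoter windows. A match describes letters, not a bound site, and these libraries do not show which start was used. The windows printed for Sgk1 and Pik3ip1 lie inside the annotated span of their gene, upstream of an inner start. The 250 bases upstream of the start are shown for the Sgk1 and Akt1 windows with a match (in capitals, which for Akt1 is the reverse complement of GTAAACA), and for Pik3ip1 and Foxo1, the genes of the list that anti-IgM raised most.
Sgk1, chr10:21993640-21993889, plus strand: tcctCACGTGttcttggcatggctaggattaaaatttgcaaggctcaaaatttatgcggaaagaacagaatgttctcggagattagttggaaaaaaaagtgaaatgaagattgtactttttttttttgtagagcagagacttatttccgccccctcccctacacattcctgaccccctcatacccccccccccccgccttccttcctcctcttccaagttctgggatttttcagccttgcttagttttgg
Akt1, chr12:112674885-112675134, minus strand: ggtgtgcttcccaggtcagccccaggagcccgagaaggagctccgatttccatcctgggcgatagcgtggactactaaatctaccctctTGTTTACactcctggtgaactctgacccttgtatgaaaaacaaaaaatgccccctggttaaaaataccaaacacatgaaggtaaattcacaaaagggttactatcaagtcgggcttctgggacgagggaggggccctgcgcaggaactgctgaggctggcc
Pik3ip1, chr11:3330481-3330730, plus strand: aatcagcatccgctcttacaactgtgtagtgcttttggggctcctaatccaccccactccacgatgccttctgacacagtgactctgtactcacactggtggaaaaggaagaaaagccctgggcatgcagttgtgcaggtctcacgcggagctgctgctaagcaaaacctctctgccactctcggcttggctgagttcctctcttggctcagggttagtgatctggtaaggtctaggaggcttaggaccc
Foxo1, chr3:52268087-52268336, plus strand: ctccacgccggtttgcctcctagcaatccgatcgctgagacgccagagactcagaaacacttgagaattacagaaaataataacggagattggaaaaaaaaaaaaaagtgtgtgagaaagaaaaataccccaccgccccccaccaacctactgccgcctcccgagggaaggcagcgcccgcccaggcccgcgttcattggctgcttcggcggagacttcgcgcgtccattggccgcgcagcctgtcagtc

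The genes differed widely in level. Per kilobase of exon, untreated parental cells had most Inpp5d (38.8 CPM per kb), then Akt1 (23.2), Pik3cd (20.1), Foxo4 (12.3), Pik3r1 (9.21 CPM per kb) and then Foxo3. Far below came Pik3ip1 (1.12), Foxo1 (0.71) and Sgk1 (0.09 CPM per kb). In this order the libraries of neighbouring genes did not overlap. Among the FoxO genes of the list, Foxo4 and Foxo3 were thus the abundant transcripts of untreated parental cells, and Foxo1 the scarce one. Lengths came from a newer annotation than the counts, and in bulk RNA a change in level per cell and a change in the share of expressing cells cannot be told apart.

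**Figure D1:**
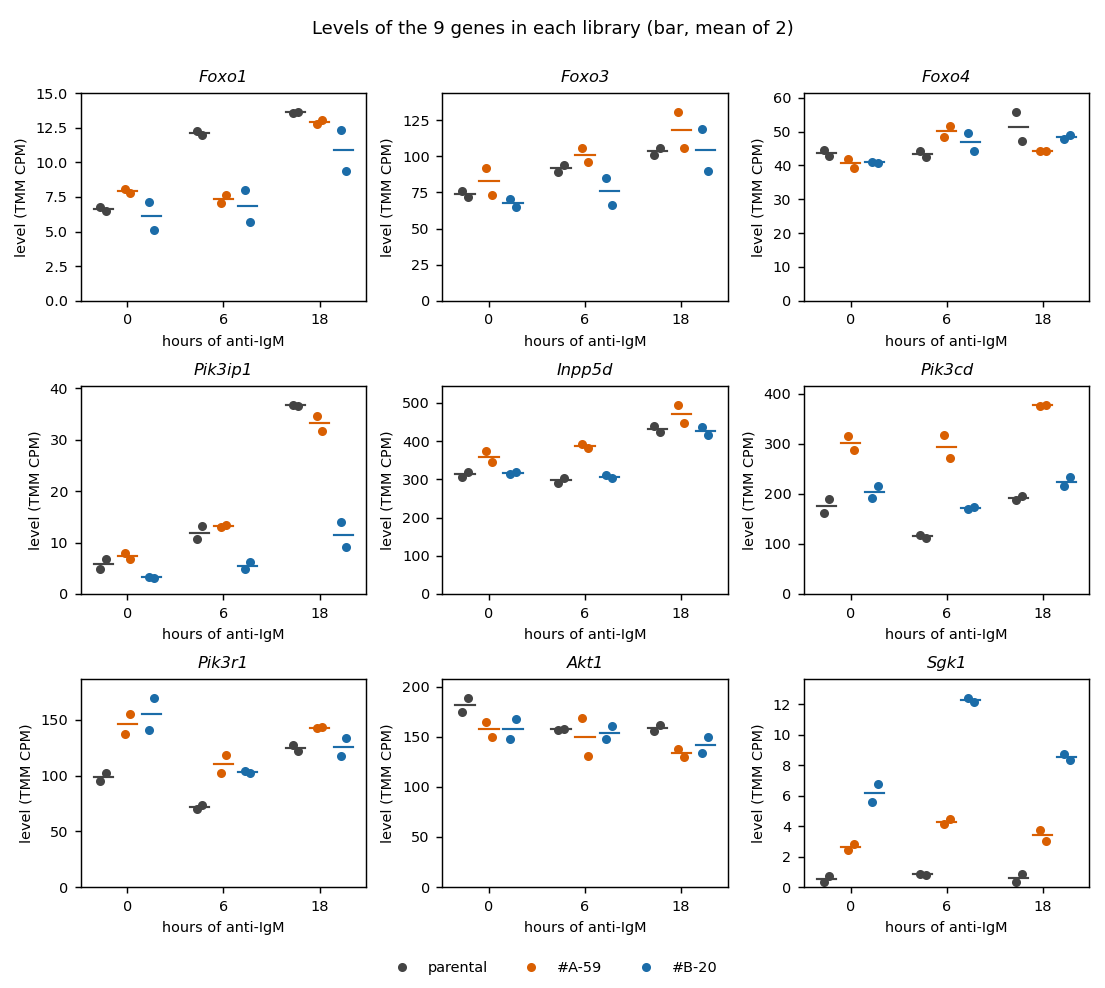
Levels (CPM, TMM scaled, axes from 0) of the 9 genes in each of the 18 libraries, by hours of anti-IgM. Points are libraries, bars the mean of 2. Sgk1 was lowest in parental and highest in #B-20 cells at each time, Pik3cd was highest in #A-59, Pik3ip1 rose with time and stayed low in #B-20, and Foxo1 at 6 h was higher in parental cells than in either clone.

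The first question was how the clones differed from parental cells at each time. Sgk1 was higher in both clones at all 3 times, Pik3cd was higher in #A-59 at all 3 times, Pik3r1 was higher in both clones at 0 and 6 h, Pik3ip1 was lower in #B-20 at 6 and 18 h, and Foxo1 was lower in both clones at 6 h. Foxo3, Foxo4 and Akt1 passed in none of the 6 comparisons. A difference passed when its adjusted p was under 0.01 (edgeR's quasi-likelihood test, Benjamini-Hochberg adjustment over all genes), and a gene was a DEG when its log2 fold change was also above 1 or below −1. In #A-59, 3 of 9 genes passed at 0 h, 5 at 6 h and 2 at 18 h, beside 9.56%, 22.7% and 10.4% of all genes tested. In #B-20, 2, 5 and 2 of 9 passed, beside 10.7%, 14.2% and 14.2%. DEGs among the 9 were 1, 2 and 1 in #A-59 and 1, 2 and 2 in #B-20, where DEGs made up 4.78%, 7.91% and 4.92% of all genes in #A-59 and 5.16%, 6.73% and 6.21% in #B-20. Both clones were set against the same parental libraries.

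**Figure D2:**
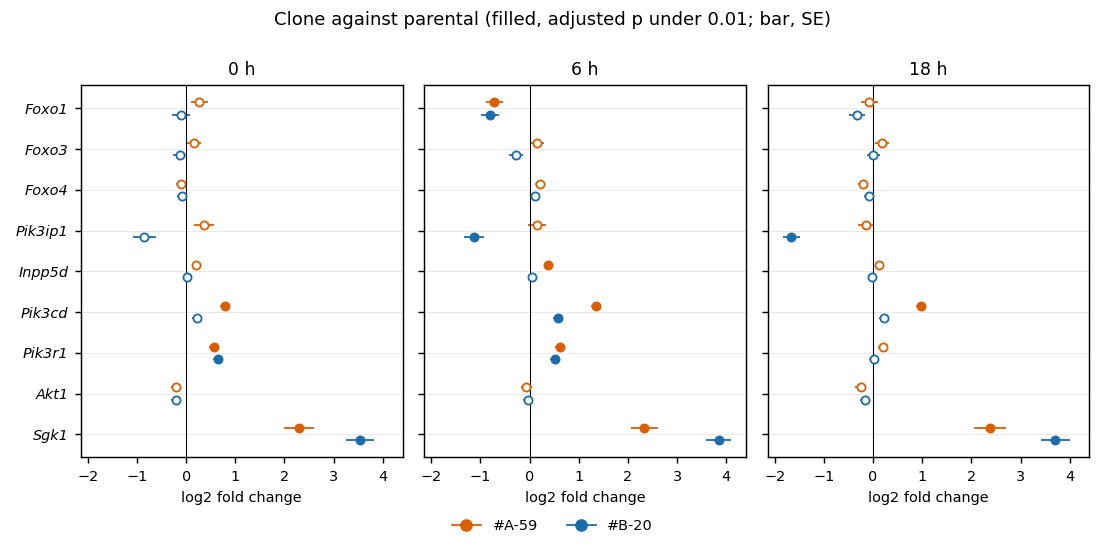
Log2 fold change of each clone against parental cells at 0, 6 and 18 h for the 9 genes, with standard errors. Filled points had an adjusted p under 0.01. Sgk1 lay between 2.30 and 3.85 in all 6 comparisons, and the points of Foxo3, Foxo4 and Akt1 were all open.

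Sgk1 (chromosome 10, 21882184 to 21999903, plus strand) encodes a kinase that shares substrates with AKT. In parental cells it was barely detected, with 9 and 18 counts at 0 h (0.33 and 0.74 CPM), 20 and 20 at 6 h (0.87 and 0.82 CPM), and 4 and 16 at 18 h (0.36 and 0.83 CPM). Clone #A-59 had 71 and 55 counts at 0 h (2.40 and 2.85 CPM), 109 and 74 at 6 h (4.13 and 4.47 CPM), and 72 and 50 at 18 h (3.77 and 3.02 CPM). Clone #B-20 had 83 and 109 counts at 0 h (5.56 and 6.76 CPM), 252 and 186 at 6 h (12.4 and 12.1 CPM), and 246 and 223 at 18 h (8.74 and 8.32 CPM). At each time the 3 genotypes did not overlap, with parental cells lowest and #B-20 highest. Clone #A-59 exceeded parental cells 4.93-, 5.04- and 5.22-fold at 0, 6 and 18 h (log2 fold changes 2.30, 2.33 and 2.38, standard errors 0.30, 0.27 and 0.33, adjusted p = 1.95e-05, 2.39e-06 and 3.46e-05). Clone #B-20 exceeded them 11.7-, 14.4- and 13.1-fold (log2 fold changes 3.54, 3.85 and 3.71, standard errors 0.29, 0.25 and 0.29, adjusted p = 2.98e-08, 1.44e-09 and 1.97e-08). Clone #B-20 was also above #A-59, by log2 fold changes of 1.24 (standard error 0.23, adjusted p = 0.000851), 1.52 (0.21, adjusted p = 2.59e-05) and 1.32 (0.21, adjusted p = 0.000162) at 0, 6 and 18 h. Because the study had chosen Sgk1 for display from these same libraries, its direction here is not independent evidence. With 1 library left out at a time, the fitted log2 fold change of #A-59 at 18 h lay between 2.04 and 3.23 and that of #B-20 between 3.36 and 4.55. The highest value of each came without parental replicate 2, when 4 counts were all that was left of the parental group. The 0 h difference between the clones was lost without #A-59 replicate 1 or #B-20 replicate 2 (adjusted p up to 0.0272).

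Among the PI3K subunits, Pik3cd (chromosome 4, 149649168 to 149702566, minus strand) was at 161 and 189 CPM in untreated parental cells, 118 and 113 CPM after 6 h, and 188 and 196 CPM after 18 h. Clone #A-59 had 315 and 288, 317 and 272, and 377 and 378 CPM at those times. In #B-20 it was at 192 and 215, 170 and 173, and 216 and 233 CPM. All libraries of both clones were above the parental libraries of their time, and those of #A-59 above those of #B-20. For #A-59 the log2 fold changes in order of time were 0.79, 1.35 and 0.97 (standard error 0.10 each, adjusted p = 8e-06, 5.51e-09 and 6.36e-07). For #B-20 the 6 h value of 0.57 passed (adjusted p = 0.000216), while 0.22 before stimulation and 0.23 after 18 h did not (adjusted p = 0.138 and 0.104). A correction for the GC content of the genes, chosen after the data were seen, gave 0.43 (adjusted p = 0.000416) and 0.30 (adjusted p = 0.0076) for the latter pair, so that their call rests on that setting. Clone #B-20 was below #A-59 by −0.57, −0.78 and −0.75 at 0, 6 and 18 h (adjusted p = 0.000404, 9.71e-06 and 1.43e-05), and the GC correction moved the 0 h value to −0.36. The 0 h call was lost without replicate 1 of either clone (adjusted p up to 0.0165).

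Pik3r1 (chromosome 13, 101680761 to 101768217, minus strand), the p85 alpha subunit, was at 95 and 103 CPM in untreated parental cells, 138 and 155 CPM in #A-59, and 141 and 169 CPM in #B-20. At 6 h the libraries held 70.3 and 73.4 CPM in parental cells, 102 and 118 CPM in #A-59, and 104 and 102 CPM in #B-20. At 18 h they held 127 and 122, 142 and 143, and 117 and 134 CPM. The clones were above parental cells without overlap at 0 and 6 h, while at 18 h #B-20 overlapped them. Before stimulation, #A-59 and #B-20 differed from parental cells by 0.57 and 0.65 on the log2 scale (standard error 0.10 each, adjusted p = 0.000539 and 0.000131). The 6 h values were 0.62 and 0.52 (adjusted p = 0.000132 and 0.000964), and those of 18 h were 0.20 and 0.01 (adjusted p = 0.219 and 0.948). Without 1 of 2 libraries at 0 h in #A-59 (parental replicate 1 or #A-59 replicate 2), or 1 of 3 at 6 h in #B-20 (either parental library or #B-20 replicate 1), the adjusted p rose to between 0.0104 and 0.022.

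Of the inhibitors, Pik3ip1 (chromosome 11, 3319241 to 3342971, plus strand) had 4.92 and 6.79 CPM in untreated parental cells, 7.99 and 6.89 CPM in #A-59, and 3.28 and 3.16 CPM in #B-20. At 6 h these were 10.7 and 13.1, 13.1 and 13.4, and 4.77 and 6.20 CPM, and at 18 h 36.7 and 36.6, 34.6 and 31.8, and 14 and 9.10 CPM. All libraries of #B-20 were below all parental and #A-59 libraries of the same time. Against parental cells the log2 fold changes of #B-20 were −0.85, −1.13 and −1.66 at 0, 6 and 18 h (standard errors 0.24, 0.20 and 0.18, adjusted p = 0.0156, 0.000364 and 1.01e-06). In #A-59 it was 0.36, 0.15 and −0.14 (adjusted p = 0.273, 0.566 and 0.643). The clones differed from each other by −1.21, −1.28 and −1.52 at 0, 6 and 18 h (adjusted p = 0.00117, 0.000119 and 3.9e-06). Lower Pik3ip1 was thus measured in 1 of the 2 clones. The 0 h difference from parental cells passed in DESeq2 (adjusted p = 0.00546), and the 6 h call was lost without #B-20 replicate 1 (adjusted p = 0.013). The 0 h difference between the clones was lost without #A-59 replicate 1 or either #B-20 library (adjusted p up to 0.0212).

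Inpp5d (chromosome 1, 87620312 to 87720510, plus strand), the gene of SHIP-1, was at 307 and 320 CPM in untreated parental cells and at 291 and 304 CPM at 6 h. At 6 h #A-59 had 393 and 383 CPM, 0.38 above parental cells on the log2 scale (standard error 0.08, adjusted p = 0.000752), and #B-20 had 310 and 304 CPM (0.05, adjusted p = 0.71). This was the only one of the 6 comparisons in which Inpp5d passed. It was lost without parental 6 h replicate 1 and with only the libraries of the 2 groups in the fit (adjusted p = 0.0206 and 0.0329). Between the clones Inpp5d differed at 6 h by −0.34 (adjusted p = 0.00276), a call lost without any 1 of the 4 libraries but #A-59 replicate 2, and −0.12 (adjusted p = 0.201) with the GC correction.

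Foxo1 (chromosome 3, 52268337 to 52350109, plus strand) was at 6.76 and 6.45 CPM in untreated parental cells, 8.09 and 7.77 CPM in #A-59, and 7.16 and 5.15 CPM in #B-20. At 6 h parental cells had 12.3 and 11.9 CPM, while #A-59 had 7.08 and 7.67 CPM and #B-20 had 8.02 and 5.68 CPM. By 18 h the levels were 13.6 and 13.6 CPM in parental cells, 12.7 and 13.1 CPM in #A-59, and 12.4 and 9.36 CPM in #B-20. All libraries of both clones were below the parental libraries at 6 h and again, by less, at 18 h. Before stimulation the #A-59 libraries were above the parental ones, a difference that did not pass (0.26, adjusted p = 0.381), and #B-20 overlapped them. The 6 h log2 fold changes of #A-59 and #B-20 were −0.72 and −0.81 (standard error 0.17 each, adjusted p = 0.00306 and 0.00205), and those of 18 h were −0.08 and −0.32 (adjusted p = 0.824 and 0.185). The 6 h calls were lost when either parental 6 h library was left out, and also without #A-59 replicate 1 or #B-20 replicate 2. The call of #A-59 was lost too with only the libraries of the 2 groups in the fit. Without the #B-20 library that stood apart, the value of that clone was −0.60.

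The other FoxO genes and Akt1 passed in no comparison between genotypes, save under some alternative settings. Foxo3 (chromosome 10, 42181845 to 42276695, minus strand) ranged from 72.0 to 106 CPM in parental cells, from 73.4 to 131 CPM in #A-59 and from 65.1 to 119 CPM in #B-20. Its log2 fold changes against parental cells lay between −0.27 and 0.19. Foxo4 (chromosome X, 101254261 to 101260873) ranged from 42.6 to 55.8 CPM in parental cells and from 39.2 to 51.7 CPM in the clones, with differences from −0.21 to 0.20. Akt1 (chromosome 12, 112653821 to 112674884, minus strand) ranged from 156 to 189 CPM in parental cells, from 130 to 169 CPM in #A-59 and from 134 to 167 CPM in #B-20, with log2 fold changes between −0.25 and −0.03. A p above the threshold does not show equal levels, and the standard errors of these differences were 0.09 to 0.14. Between the clones, Foxo3 differed by −0.42 to −0.18 (edgeR, adjusted p from 0.032 to 0.372). At 6 h Foxo3 passed as lower in #B-20 than in #A-59 with the replicate block (−0.42, adjusted p = 0.00628). It also passed there with no filter on low counts (−0.46, adjusted p = 0.000371). Foxo4 differed between the clones by −0.09 to 0.13. Akt1 differed by 0.00 to 0.09. With the GC correction it was higher in #B-20 than in #A-59 by 0.34 at 0 h and 0.40 at 6 h (adjusted p = 0.00612 and 0.00103).

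Next, the response to BCR ligation within each genotype was examined. In parental cells at 6 h, Foxo1 and Pik3ip1 rose and Pik3cd and Pik3r1 fell, so that 4 of 9 genes passed beside 7.34% of all genes. At 18 h, Foxo1, Foxo3, Pik3ip1 and Inpp5d had risen, 4 of 9 genes beside 32.6% of all genes, a share not far from the background. The same 4 genes rose at 18 h in #A-59, beside 31.8% of all genes, and in #B-20, beside 22.8%. At 6 h, 1 of 9 genes passed in #A-59 (Pik3ip1, beside 6.14% of all genes) and 2 in #B-20 (Sgk1, higher, and Pik3r1, lower, beside 1.29%). Akt1 and Foxo4 passed in none of the 6 comparisons. With the GC correction, Akt1 passed as lower at 18 h than before stimulation within each clone, by −0.28 and −0.42 (adjusted p = 0.00678 and 0.000363). In parental cells Akt1 passed as lower at 18 h with the GC correction and replicate block (−0.26, adjusted p = 0.00802). It also passed there with only the libraries of the 2 groups in the fit (−0.22, adjusted p = 0.00767). At 18 h the B cell markers moved as well, with 6, 7 and 7 of 9 higher in parental, #A-59 and #B-20 cells, and their part in the rise of the 4 genes was not tested.

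**Figure D3:**
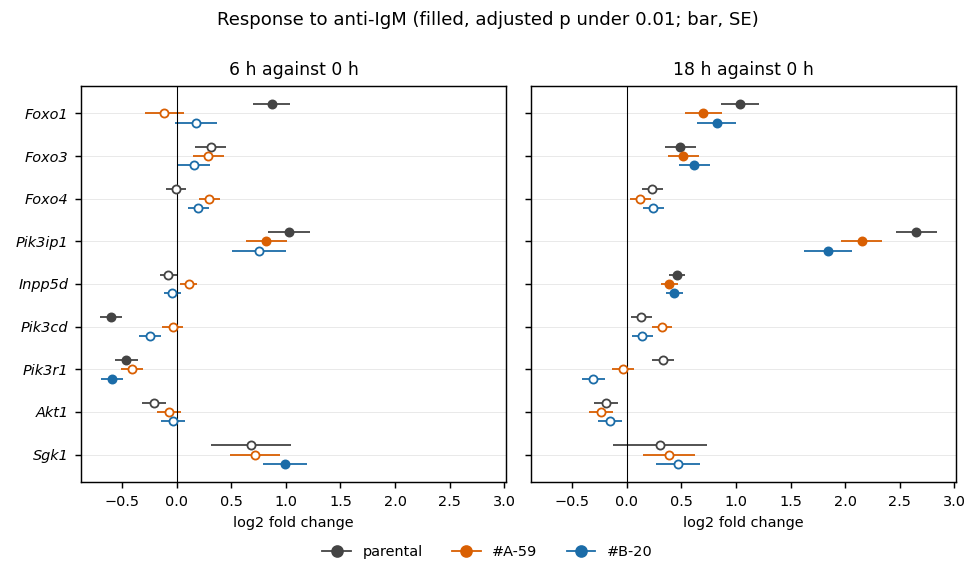
Log2 fold change of 6 h and 18 h of anti-IgM against 0 h for the 9 genes in parental, #A-59 and #B-20 cells, with standard errors. Filled points had an adjusted p under 0.01. Pik3ip1 rose most at 18 h in all 3 genotypes, and at 6 h the parental point of Foxo1 stood apart from both clones.

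Pik3ip1 had the largest response. Parental cells gained 1.03 on the log2 scale by 6 h and 2.65 by 18 h (standard error 0.19 each, adjusted p = 0.00105 and 8.49e-09), the latter a fold of 6.29. By 18 h #A-59 and #B-20 had gained 2.15 and 1.84 (standard errors 0.18 and 0.22, adjusted p = 6.79e-08 and 6.9e-06). At 6 h the values were 0.82 in #A-59 (adjusted p = 0.00717) and 0.76 in #B-20 (adjusted p = 0.122). The parental 6 h call was lost without parental 0 h replicate 1 or parental 6 h replicate 2, and the 6 h call of #A-59 in 10 of 28 alternatives (adjusted p up to 0.0924).

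Foxo1 rose in parental cells by 0.87 and 1.04 at 6 and 18 h (standard error 0.17 each, adjusted p = 0.00151 and 8.56e-05). In the clones it was at −0.11 in #A-59 (adjusted p = 0.732) and 0.17 in #B-20 (adjusted p = 0.739) at 6 h, and rose by 0.70 (adjusted p = 0.00262) and 0.83 (adjusted p = 0.00154) at 18 h. The parental 6 h call did not survive leaving out any 1 of the 4 libraries behind it (adjusted p from 0.0138 to 0.0297), nor did the 18 h call of #A-59 (0.0177 to 0.0216), and that of #B-20 was lost without 18 h replicate 1 or 0 h replicate 2 (up to 0.0477). Foxo3 rose at 18 h by 0.49, 0.52 and 0.62 in parental, #A-59 and #B-20 cells (adjusted p = 0.00923, 0.00617 and 0.00245), and these calls were lost in 13, 12 and 5 of 28 alternatives.

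Inpp5d rose at 18 h by 0.46, 0.39 and 0.44 in parental, #A-59 and #B-20 cells (standard error 0.08 each, adjusted p = 7.96e-05, 0.000418 and 0.00024), to 439 and 425 CPM, 495 and 447 CPM, and 438 and 417 CPM. The #A-59 call was lost without 18 h replicate 1 or 0 h replicate 2 (adjusted p up to 0.0258). Pik3cd fell by 0.60 in parental cells at 6 h (standard error 0.10, adjusted p = 0.000274) a call lost without 0 h replicate 2 (adjusted p = 0.0125), and was at 0.13 at 18 h (adjusted p = 0.281). Pik3r1 fell at 6 h by 0.46 in parental cells (adjusted p = 0.00484) and by 0.59 in #B-20 (adjusted p = 0.00262), with −0.41 in #A-59 (adjusted p = 0.0127). At 18 h its values were 0.33, −0.03 and −0.31 in parental, #A-59 and #B-20 cells (adjusted p = 0.0128, 0.81 and 0.0259). Some of these calls depend on the setting. With the replicate block, Pik3r1 passed at 18 h in parental cells (0.34, adjusted p = 0.00391) and #B-20 (−0.30, adjusted p = 0.00949). In DESeq2, Pik3r1 at 6 h (−0.40) and Pik3cd at 18 h (0.33) passed in #A-59 (adjusted p = 0.00442 and 0.00497). The parental 6 h call of Pik3r1 was lost without any 1 of its 4 libraries, and that of #B-20 without either 6 h library or 0 h replicate 2. Sgk1 rose in #B-20 at 6 h by 0.99 (standard error 0.20, adjusted p = 0.0098), a call lost in 13 of 27 alternatives, and no other response of Sgk1 passed.

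Whether a clone responded differently was tested as an interaction term. None of the 9 genes passed in any of the 4 comparisons with edgeR (0 of 36 tests), beside 0.646% of all genes for #A-59 at 6 h, 0.0392% for #A-59 at 18 h, 0.183% for #B-20 at 6 h and 0.222% for #B-20 at 18 h. At an unadjusted p under 0.05 there were 8 of 36, and DESeq2 passed 2. The share of all genes at either setting was not counted, so these numbers have no background to be read against. The values nearest to the threshold were those of Foxo1 in #A-59 at 6 h (−0.98, standard error 0.24, adjusted p = 0.0445), Pik3cd in the same clone and time (0.57, 0.14, adjusted p = 0.039) and Pik3r1 in #B-20 at 18 h (−0.64, 0.14, adjusted p = 0.0474). DESeq2 passed Pik3cd and Pik3r1 there, at adjusted p = 0.00762 and 0.00835. For Foxo1 in #B-20 at 6 h the interaction was −0.70 (standard error 0.26, adjusted p = 0.384). The Foxo1 value of #A-59 passed with no filter on low counts (−0.99, adjusted p = 0.00475) and with the GC correction together with the replicate block (adjusted p = 0.00609), so that its call depends on the setting.

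Set against each other, the clones differed in 3, 4 and 3 of the 9 genes at 0, 6 and 18 h, beside 8.41%, 18.7% and 16.2% of all genes. Sgk1, Pik3ip1 and Pik3cd differed at all 3 times, with values given above, and Inpp5d at 6 h. Tfeb itself was higher in #B-20 than in #A-59 by 0.51 and 0.67 at 0 and 6 h (adjusted p = 0.00436 and 0.000206).

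The rest of the pathway was described with lists written by hand. Of 22 PI3K subunits and adaptors, 19 were tested, and at 6 h 7 were higher and 2 lower in #A-59, and 4 higher and 5 lower in #B-20, beside 22.7% and 14.2% of all genes passing in either direction. The gene with the largest change in both clones was Irs2, an adaptor of insulin and cytokine receptors and itself a FoxO target. Parental cells had 160 and 163 CPM of Irs2 untreated, 370 and 404 CPM after 6 h, and 326 and 313 CPM after 18 h. No library of the clones was above 73.0 CPM. The log2 fold changes of Irs2 were −2.22, −3.24 and −2.38 in #A-59 and −2.07, −3.18 and −2.20 in #B-20 at 0, 6 and 18 h (adjusted p at most 5.89e-10). Its response at 6 h was 1.26 in parental cells (adjusted p = 5.66e-07), 0.25 in #A-59 and 0.15 in #B-20. For Irs2 the interaction passed, at −1.02 in #A-59 (standard error 0.17, adjusted p = 0.0033) and −1.11 in #B-20 (0.17, adjusted p = 0.00308), though each was lost in 7 of 28 alternatives, among them leaving out any 1 of the 4 parental 0 h and 6 h libraries (adjusted p up to 0.0236 and 0.0332).

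Of the regulatory subunits of the catalytic subunit p110 gamma, Pik3r5 was higher in #A-59 at 0 and 6 h and lower in #B-20 at all 3 times, and Pik3r6 was higher in #A-59 at all 3 times. Pik3r5 in parental cells was at 2.28 and 2.52 CPM at 0 h, in #A-59 at 4.84 and 4.04 CPM and in #B-20 at 0.80 and 0.93 CPM. The log2 fold changes of Pik3r5 at 0, 6 and 18 h were 0.90, 1.22 and 0.59 in #A-59 (adjusted p = 0.00187, 0.000134 and 0.0227) and −1.46, −1.27 and −1.69 in #B-20 (adjusted p = 0.000375, 0.00238 and 2.64e-06). The 6 h call of #B-20 was lost in 7 of 28 alternatives, among them DESeq2 and leaving out any 1 of its 4 libraries, and the 0 h call of #A-59 without either parental library or #A-59 replicate 1 (adjusted p up to 0.0302 and 0.0498). For Pik3r6 they were 2.37, 2.97 and 1.41 in #A-59 (adjusted p at most 3.51e-05), and 0.49, 0.69 and −0.10 in #B-20 (adjusted p at least 0.0791). In parental cells both rose at 18 h, Pik3r5 by 1.31 and Pik3r6 by 1.70. The gene of p110 gamma itself had at most 7 counts in any library. Cr2, a complement receptor of B cells, passed as higher in both clones only at 18 h. There #A-59 exceeded parental cells by 2.01 (adjusted p = 4.58e-05) and #B-20 did so by 2.52 (adjusted p = 4.22e-06). Earlier values of #A-59 were 0.79 before stimulation and −0.18 at 6 h (adjusted p = 0.0297 and 0.587). Those of #B-20 were 1.53 and 1.07 (adjusted p = 0.000321 and 0.00356), the latter call lost in 7 of 28 alternatives. Within parental cells Cr2 fell by 18 h (−0.84, adjusted p = 0.00961), a call lost in 13 of 28 alternatives.

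Of 24 phosphoinositide phosphatases and PI3K inhibitors, 23 were tested, and in parental cells at 18 h 11 were higher and none lower, beside 32.6% of all genes passing in either direction. The examples beside Pik3ip1 were Fcgr2b, the inhibitory Fc receptor of B cells (1.97, standard error 0.09, adjusted p = 1.49e-10), and Inpp5k, a phosphoinositide phosphatase (1.49, 0.08, adjusted p = 6.2e-10). Fcgr2b rose less in #B-20, by 1.15, with an interaction of −0.82 (adjusted p = 0.0046) that was lost in 7 of 28 alternatives. Inpp4b, a phosphatase of the lipid that SHIP-1 makes, fell in parental cells at 6 h by 2.05 on the log2 scale (adjusted p = 2.07e-07). It was at 11.2 and 12.2 CPM in untreated parental cells, 4.4 and 4.5 CPM in #A-59 and 5.35 and 5.77 CPM in #B-20. Against parental cells Inpp4b was at −1.39, −1.58 and −1.47 in #A-59 (adjusted p at most 5.2e-05) and at −1.07, −0.61 and −1.78 in #B-20 (adjusted p = 0.000141, 0.0539 and 1.75e-07).

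Of 14 AKT and SGK kinases and their activating kinases, 12 were tested, and Sgk1 was a DEG in both clones at all 3 times and Sgk2 at 0 h, a call of Sgk2 that was lost in 4 of 26 alternatives for #A-59 and 9 of 26 for #B-20 (adjusted p up to 0.0348 and 0.121). Sgk2 had at most 1 count in any parental library, 6 to 32 counts in #A-59 and 2 to 6 in #B-20, and no fold over parental cells is given at such counts. Of 21 AKT and SGK substrates and regulators of mTORC1, 20 were tested, and Nedd4l, a ubiquitin ligase that SGK1 phosphorylates, was the only gene that was a DEG in both clones at the same time, 6 h. Its level at 6 h was 34.4 and 35.8 CPM in parental cells, 69.8 and 71.3 CPM in #A-59 and 69.8 and 72.0 CPM in #B-20. Nedd4l was thus 1.01 higher on the log2 scale in both clones (standard error 0.09 each, adjusted p = 6.69e-08 and 6.46e-08), and it passed at 0 and 18 h as well. The FoxO gene outside the 9, Foxo6, fell in parental cells by 1.1 at 6 h and 2.15 at 18 h (adjusted p = 0.000174 and 1.06e-07), opposite to Foxo1. At 18 h Foxo6 was lower in #A-59 and higher in #B-20 than in parental cells (−1.18 and 1.08, adjusted p = 0.00391 and 0.000696). The #A-59 call was lost without either #A-59 library or parental replicate 2 (adjusted p up to 0.169), and the #B-20 call without parental replicate 1 or #B-20 replicate 2 and when no other group entered the fit (up to 0.0149).

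**Figure D4:**
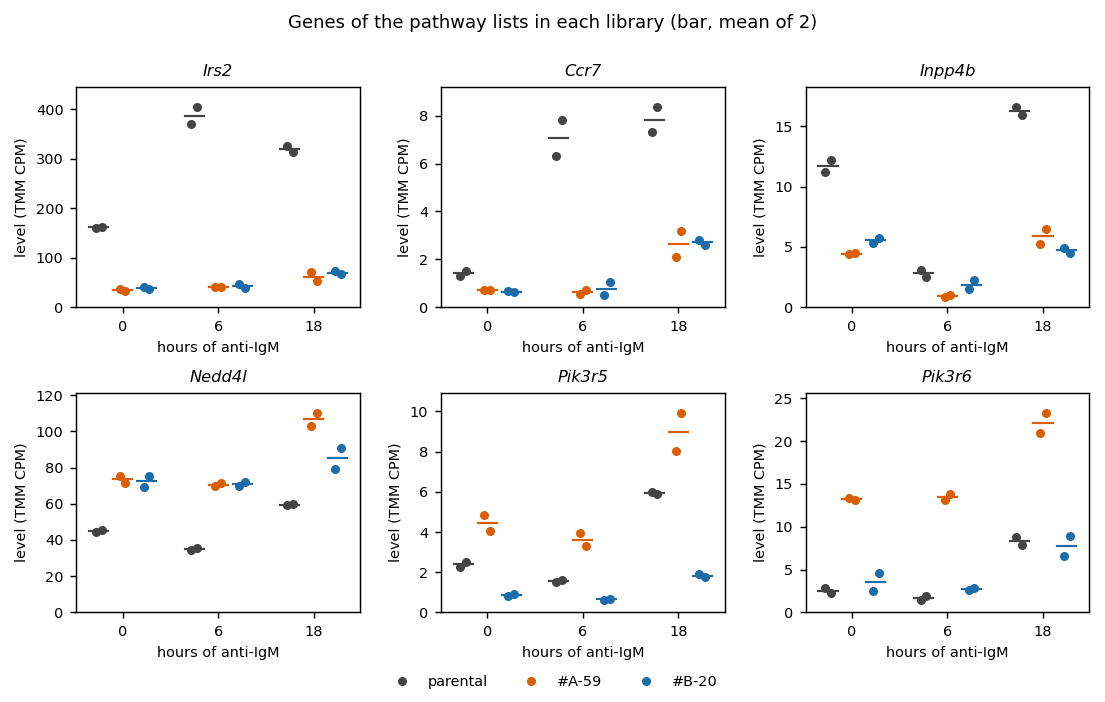
Levels (CPM, TMM scaled, axes from 0) of 6 genes of the pathway lists in each library, by hours of anti-IgM. Points are libraries, bars the mean of 2. Irs2 and Ccr7 at 6 and 18 h, and Inpp4b at 0 and 18 h, were low and Nedd4l was high in both clones, whereas Pik3r5 and Pik3r6 were highest in #A-59.

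Known FoxO target genes formed the last list, with 26 of 34 tested, Pik3ip1 and Irs2 among them. In parental cells at 18 h, 20 were higher and 1, Sod2 (named after its values were seen), was lower, and their median log2 fold change was 0.86 beside 0.04 for all genes. In #A-59 17 were higher and 1 lower (median 0.83), and in #B-20 19 were higher and 1 lower (median 0.74). Of all genes, 32.6%, 31.8% and 22.8% passed in either direction in parental, #A-59 and #B-20 cells at that time. Of the 26, 16 passed as higher in all 3 genotypes. At 6 h 3 were higher and 1 lower in parental cells, 1 higher and 3 lower in #A-59 and none in #B-20, with medians of −0.02, 0.13 and 0.07. The B cell markers had medians of 0.61, 0.53 and 0.53 at 18 h, and Cd22 and Blnk stand in both lists. Beside Pik3ip1, parental cells at 18 h had more of the homing gene Ccr7 (2.47, standard error 0.24) and of the stress gene Sesn3 (1.80, 0.11).

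**Figure D5:**
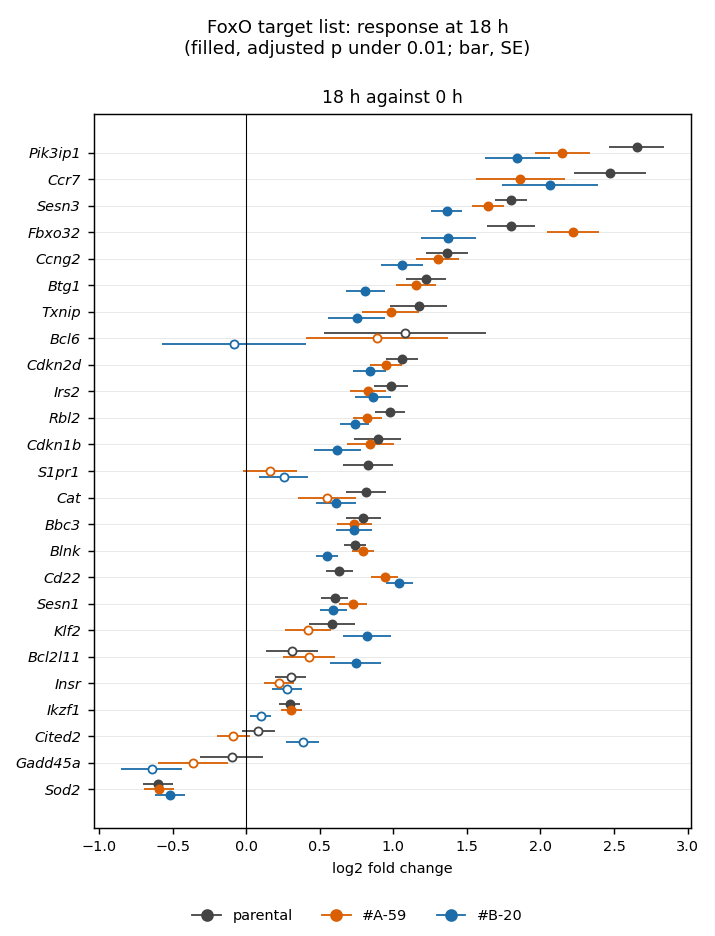
Log2 fold change of 18 h of anti-IgM against 0 h for 25 of the 26 tested genes of the FoxO target list in the 3 genotypes, with standard errors, ordered by the parental value. Filled points had an adjusted p under 0.01. Most genes lay to the right of 0 in all 3 genotypes, and Sod2 was lower in each.

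Ccr7 encodes a chemokine receptor, and was among the genes the study had chosen from these libraries. Parental cells had 1.30 and 1.53 CPM of Ccr7 untreated, 6.33 and 7.82 CPM after 6 h, and 7.31 and 8.35 CPM after 18 h. Clone #A-59 had 0.71 and 0.72 CPM, 0.57 and 0.72 CPM, and 2.10 and 3.20 CPM, and in #B-20 0.67 and 0.62 CPM, 0.49 and 1.04 CPM, and 2.81 and 2.61 CPM. Ccr7 rose at 6 h in parental cells (2.32, adjusted p = 2.08e-06) and was at −0.18 in #A-59 and 0.19 in #B-20 (adjusted p = 0.8 and 0.892), and at 18 h it rose in all 3 genotypes. Against parental cells the log2 fold change of Ccr7 at 6 h was −3.47 in #A-59 and −3.25 in #B-20 (adjusted p = 2.37e-08 and 6.63e-08). The interaction at 6 h passed in #A-59 (−2.50, standard error 0.45, adjusted p = 0.00536), a call lost in 8 of 28 alternatives, and did not pass in #B-20 (−2.13, adjusted p = 0.0694). At 18 h, 5 FoxO targets were lower and 1 higher in #A-59 than in parental cells, and 10 were lower and 1 higher in #B-20, with medians of −0.06 and −0.28 beside −0.02 and 0.01 for all genes, of which 10.4% and 14.2% passed in either direction.

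Over the 9 group means, the genes whose log2 level was most like that of Sgk1 were Fahd2a (Pearson's r 0.984), Gm26788 (0.981) and Arl13a (0.973). For Pik3ip1 they were Ip6k1 (0.995), Akap5 (0.990) and Wdr13 (0.987), and for Foxo1 Map1lc3a (0.981), Cyp11b1 (0.972) and Plau (0.951). These r are a description among 15149 genes, in which the 9 groups share libraries of 3 genotypes and some likeness is found for any pattern. Reads of genes that overlap a member cannot be told apart in libraries made without strand. Pik3ip1 shares its locus with Gm12592 and Gm11944, which had 18 to 68 counts per library, and Pik3cd and Akt1 with microRNA genes of at most 3 counts. Sgk1 overlaps Gm46215 and Gm18511, Foxo3 overlaps Gm38485, Inpp5d overlaps Gm33470, and Akt1 also overlaps Gm30150. None of these was found by symbol among the counted genes, so their part in the counts could not be checked.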

How the data were processed

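RNA was prepared with a poly(A) kit that does not keep strand and read from one end. The authors' counts, whole reads per Ensembl gene without normalization, were used as deposited for each of the 18 libraries. The submitters' processing notes name bcl2fastq 2.20.0.422, STAR 2.5 and featureCounts 1.5.0-p1, with GRCm38 as the genome. Symbols were found for 51731 of 55487 gene identifiers (93.2%), which held 99.6% of the counts.

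Groups came from the labels. Genes with low counts were removed (filterByExpr), which left 15318, and libraries were scaled by TMM. The quasi-likelihood test of edgeR 4.0.16 (R 4.3.3, limma 3.58.1) was fitted with 1 mean for each of the 9 groups and robust dispersion, and 19 comparisons were drawn from it, each adjusted by Benjamini-Hochberg over all genes. Genes passed at an adjusted p under 0.01, and DEGs also exceeded 1 in absolute log2 fold change. Standard errors are the log2 fold change divided by the root of F. The test was tried on simulated data for #A-59 against parental at 0 h (15156 genes), where it called 195 of 200 genes changed by 2 on the log2 scale and 1 unchanged gene. A call there had to meet the DEG rule, and the simulated spread followed the trend over all genes, with none particular to a gene. The trial therefore does not show how often smaller changes that pass on adjusted p alone are found or are false. Alternatives were DESeq2 1.42.0, other scalings and filters, fewer libraries, a replicate block, a GC correction, and leaving out each library.

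The members and lists were chosen with earlier results of these data known. Beside the 9 members and Tfeb, genes are named where they were DEGs of 1 direction in both clones (up to 6 a list) or in the parental response (up to 4 a list), except 1 gene that is counted in its list and not reported here. Same-numbered libraries were not taken as pairs: over 36 pairs of groups their deviations correlated with r from −0.03 to 0.32, 14 above 0.1. Counting precision follows depth: Sgk1 rests on 4 to 252 counts. The replicates are separate experiments on one line.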

Additional observations from a re-analysis of the deposited data

Results flagged for a closer look

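The clones differed from each other in several genes of the pathway, tested directly (log2 fold change of #B-20 against #A-59, edgeR). At 0, 6 and 18 h the differences were −1.21, −1.28 and −1.52 for Pik3ip1, −0.57, −0.78 and −0.75 for Pik3cd, and 1.24, 1.52 and 1.32 for Sgk1. For the p110 gamma partners they were −2.36, −2.49 and −2.28 for Pik3r5 and −1.88, −2.29 and −1.51 for Pik3r6, and for Foxo6 they were 1.08, 1.57 and 2.26. Tfeb differed by 0.51 at 0 h and 0.67 at 6 h, and Sesn3 by 0.51 and 0.42 at those times.

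Other differences passed at fewer times. They were 0.65 for Fcgr2b at 0 h. At 6 h they were −0.34 for Inpp5d, 1.25 for Cr2, −0.61 for Inpp5k, and −2.30 for Sgk2, from 32 and 22 counts in #A-59 and 6 and 3 in #B-20. At 18 h they were −0.50 for Inpp5k and −0.33 for Nedd4l. Under the alternatives the call was lost in 6 of 28 for Inpp5d, 2 of 28 for Cr2, 1 of 28 for Inpp5k at 6 h, 3 of 27 for Sgk2, 17 of 28 for Nedd4l (adjusted p up to 0.1), and 4 and 10 of 28 for Sesn3 at 0 and 6 h.

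The response to anti-IgM differed from that of parental cells, as an interaction term, for Irs2 at 6 h in #A-59 (−1.02) and #B-20 (−1.11), for Ccr7 at 6 h in #A-59 (−2.50) and for Fcgr2b at 18 h in #B-20 (−0.82).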

How the results depend on the processing

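Across the alternatives no result reversed. Of 36 interaction tests of the 9 genes, 0 passed, against 2 with DESeq2 without shrinkage, 2 with its betaPrior, 2 with no filter on low counts, 2 with the GC correction together with the replicate block, and 0 to 1 with a library left out (1 without #A-59 6 h replicate 2). Tfeb was a DEG in 5 of 6 comparisons, and in 3 with the GC correction and in 3 with the GC correction and the replicate block. The cause was not tested. With the replicate block alone, 19 of 54 clone comparisons of the 9 genes passed (19 without it), 23 of 54 responses (19 without), 0 interactions and 11 of 27 differences between clones (10 without). With a library left out these were 15 to 20, 13 to 19 and 7 to 10. The GC correction was chosen after the data were seen, and also made Akt1 pass as lower at 18 h than at 0 h within each clone (−0.28 in #A-59, −0.42 in #B-20). Together with the replicate block it did so in parental cells too (−0.26). Sgk1 drops out where at least 10 counts are asked of every library, and its parental level is limited by depth.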
